A study of Caenorhabditis elegans with 2 samples.

Results

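Small nucleolar RNA (snoRNA) genes that lie inside protein-coding genes of Caenorhabditis elegans were examined for the presence of the MADF-5 protein. Members were all genes of biotype snoRNA in the Ensembl annotation of the WBcel235 assembly that lay wholly inside a protein-coding gene on the same strand, which gave 183 of the 346 snoRNA genes. They sat in 159 host genes, and 3 of them had 2 hosts each. The remaining 163 snoRNA genes are called the other snoRNA genes here. The data came from chromatin immunoprecipitation with an anti-GFP antibody followed by sequencing (ChIP-seq) of whole L4 larvae, collected at 50 hours after starved L1 larvae from bleached parents were used to synchronise the culture. The strain was OP436, which carries the insertion wgIs436. This is a fosmid transgene in which C01G12.1 (madf-5) is tagged with TY1 EGFP 3xFLAG, delivered with the rescuing gene unc-119(+) in animals that carry the allele unc-119(tm4063). There were 2 biological replicates of this 1 group, so no condition was set against another, and no test between conditions could be made. The protein measured is the product of a transgene, present beside whatever the worm's own madf-5 makes. Whole animals were used, so the cell types in which a site was occupied cannot be told apart. The labels also name a control, which was not analysed here.

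SnoRNAs guide chemical changes of ribosomal and other RNAs. Those of the C/D class carry the C box and the D box and direct 2′-O-methylation of ribose, and those of the H/ACA class end in an ACA shortly before the 3′ end and direct the change of uridine to pseudouridine. Many animal snoRNAs are cut out of introns of host genes, so that their supply follows RNA polymerase II transcription of the host. In C. elegans a number of snoRNA genes are instead known to have a promoter of their own, of the kind used by RNA polymerase III at tRNA genes. That promoter consists of an A box and a B box, which recruit the factor TFIIIC, and such a gene ends at a run of T. MADF-5 has a MADF domain, a DNA-binding fold related to Myb and SANT domains.

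The nested snoRNA gene at the strongest peak was C51F7.3 in an intron of frm-7, which encodes a FERM domain protein. Its neighbourhood is shown because the peak summit, 93 bp upstream of the annotated start, fell within an A box form. The stretch below covers chrV:12303598-12303813 of WBcel235 on the plus strand, from 110 bp upstream of the start to 105 bp downstream of it, with the A box form TGGNNNAGNNG and the B box core GTTCGANNC in capitals. The T run after the gene lies near its right end.
C51F7.3 and its surroundings: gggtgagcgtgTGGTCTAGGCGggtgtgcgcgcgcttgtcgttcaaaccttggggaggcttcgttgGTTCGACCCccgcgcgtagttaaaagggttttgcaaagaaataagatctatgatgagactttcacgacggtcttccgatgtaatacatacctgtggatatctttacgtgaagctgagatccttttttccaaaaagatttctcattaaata

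The genes themselves are shown next for the members at the strongest peaks, so that letters of the snoRNA classes can be seen where they are present. Capitals mark the C box core TGATGA and the D box CTGA near the ends, or an ACA that lies 3 bases before the 3′ end. All were read from the RefSeq copy of WBcel235, on the strand of the gene. C51F7.3 (chrV:12303708-12303783) held both C and D box letters. ZK994.7 (chrV:8500579-8500645) and F19H8.6 (chrII:14617143-14617210) held the D box letters, while Y43F8C.22 (chrV:19643050-19643187) held the ACA. F38E11.14 (chrIV:9477629-9477699) held none of these exact letters in the places searched, nor did C51F7.4 (chrV:12303599-12303693).
C51F7.3: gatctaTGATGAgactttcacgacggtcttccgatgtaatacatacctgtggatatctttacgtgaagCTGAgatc
C51F7.4: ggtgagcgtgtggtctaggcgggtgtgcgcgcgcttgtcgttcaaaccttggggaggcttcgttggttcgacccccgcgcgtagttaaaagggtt
ZK994.7: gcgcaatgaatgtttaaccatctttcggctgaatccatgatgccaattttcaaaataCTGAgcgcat
Y43F8C.22: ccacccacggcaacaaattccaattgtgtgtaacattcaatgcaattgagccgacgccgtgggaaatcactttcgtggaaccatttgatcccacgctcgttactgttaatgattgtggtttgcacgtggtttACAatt
F19H8.6: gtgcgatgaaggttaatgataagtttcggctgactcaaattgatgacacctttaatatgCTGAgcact
F38E11.14: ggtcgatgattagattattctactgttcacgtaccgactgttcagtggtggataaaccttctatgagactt
C51F7.4 lies in the stretch just before C51F7.3, and its annotated sequence contains the A and B letters shown above for C51F7.3. Both genes therefore shared 1 peak, whose summit was 16 bp inside C51F7.4.

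The letters before the starts of 10 members, each from 110 bp upstream of the start to 9 bp after it, are shown because most of the summits fell within them. These 10 were chosen after their values were seen. Capitals mark an A form and a B core that together make a pair, as defined with the sequence results. The members that hold such a pair come before those that do not.
Y43F8C.22: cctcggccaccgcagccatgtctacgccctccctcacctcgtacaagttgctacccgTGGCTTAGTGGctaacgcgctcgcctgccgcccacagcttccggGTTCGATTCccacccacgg
F19H8.6: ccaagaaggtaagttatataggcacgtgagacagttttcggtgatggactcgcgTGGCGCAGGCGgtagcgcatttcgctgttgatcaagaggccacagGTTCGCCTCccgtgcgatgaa
F55A11.10: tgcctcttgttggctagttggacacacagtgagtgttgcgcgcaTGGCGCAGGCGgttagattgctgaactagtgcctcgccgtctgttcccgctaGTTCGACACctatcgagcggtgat
M106.6: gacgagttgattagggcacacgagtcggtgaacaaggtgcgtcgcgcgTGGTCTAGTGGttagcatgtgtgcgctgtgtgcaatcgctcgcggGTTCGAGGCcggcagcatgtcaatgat
W08G11.6: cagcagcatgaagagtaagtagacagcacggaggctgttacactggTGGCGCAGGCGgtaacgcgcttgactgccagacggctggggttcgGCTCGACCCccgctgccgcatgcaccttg
K11C4.6: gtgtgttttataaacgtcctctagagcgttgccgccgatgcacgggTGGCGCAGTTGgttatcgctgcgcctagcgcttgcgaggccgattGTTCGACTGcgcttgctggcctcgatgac
ZK994.7: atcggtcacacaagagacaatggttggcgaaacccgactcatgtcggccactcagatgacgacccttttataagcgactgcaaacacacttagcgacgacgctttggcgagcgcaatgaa
F38E11.14: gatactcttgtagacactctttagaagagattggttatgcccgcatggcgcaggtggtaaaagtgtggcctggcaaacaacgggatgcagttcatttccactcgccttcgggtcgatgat
C05D2.15: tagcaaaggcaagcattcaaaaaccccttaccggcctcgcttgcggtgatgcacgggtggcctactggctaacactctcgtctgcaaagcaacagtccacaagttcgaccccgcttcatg
D1046.6: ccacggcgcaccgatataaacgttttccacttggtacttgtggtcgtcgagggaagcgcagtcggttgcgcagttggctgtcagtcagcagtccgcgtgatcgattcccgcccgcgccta
The windows are chrV:19643178-19643297, chrII:14617033-14617152, chrV:11782882-11783001, chrII:10840207-10840326, chrV:16370109-16370228, chrV:6888966-6889085, chrV:8500469-8500588, chrIV:9477690-9477809, chrIII:5602170-5602289 and chrIV:8927155-8927274, in the order of the sequences.

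A member was counted as bound when its start lay within 500 bp of the summit of a peak in the conservative thresholded list, which the authors made from both replicates and which holds 813 peaks. By this rule 27 of the 183 nested snoRNA genes were bound, a share of 14.8% (Wilson 95% interval 10.3 to 20.6%). The background share was 3.82%, or 960 of the 25103 genes of all kinds that start within 500 bp of a summit in the ranked list of the whole series. Of the nested genes, 170 lay within 500 bp of a ranked summit, and 15.9% of these were bound. Among the other snoRNA genes 32 of 163 were bound, or 19.6% (14.3 to 26.4%), so that the intervals of nested and other snoRNA genes overlapped. The share was 47.1% for tRNA genes, with 288 of 612 bound, and 1.44% for protein-coding genes, with 287 of 19973 bound. With other windows or the other list the background share was 3.8% at 250 bp, beside 22 of 183 nested genes, 4.55% at 1000 bp, beside 39 of 183, and 3.78% in the second whole-series thresholded list at 500 bp, beside 26 of 183. Intervals cover counting error only, neighbouring genes can share a peak, and the differences between gene classes were not tested.

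Each replicate's own thresholded list gave fewer bound members and the same order of snoRNA, tRNA and protein-coding classes. In the list of replicate 1, 22 of 183 nested genes were bound, or 12.02% (8.07 to 17.5%). Of the 151 nested genes near a ranked summit of that replicate 14.6% were bound, beside 2.82% of all genes near one. The same list bound 25 of the 163 other snoRNA genes, or 15.3%. In the list of replicate 2, 14 of 183 nested genes were bound, or 7.65% (4.61 to 12.4%). Of the 140 nested genes near its ranked summits 10.0% were bound, beside 1.53% of all genes near them. That list bound 18 of the other snoRNA genes, or 11.0%. These lists hold 411 and 254 peaks, so a smaller count of bound members goes with a shorter list.

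**Figure D1:**
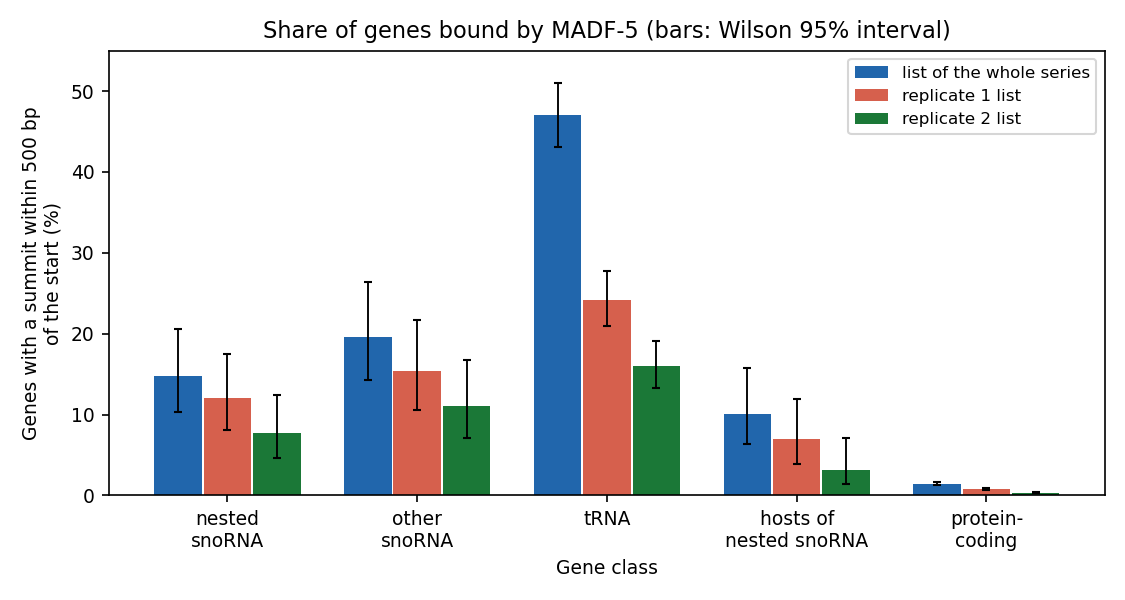
Share of genes (y axis, %) whose start lay within 500 bp of a summit, by gene class (x axis), in the conservative list of the whole series and in each replicate's own list, with Wilson 95% intervals as error bars. Nested snoRNA genes stood at 14.8% in the list of the whole series, below tRNA genes at 47.1% and above protein-coding genes at 1.44%.

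The 27 bound members lay at 26 peaks, since C51F7.3 and C51F7.4 shared one. The deposited signal of a peak is the authors' own value, on a scale the sources do not state, and is used here within a list only. Its median at the bound members was 101 (quartiles 71.8 and 124, range 49.9 to 215), against 75.6 over all 813 peaks (quartiles 63.9 and 94.3). Of the 27 members, 19 had a signal above the median of all peaks. The 32 bound other snoRNA genes had a median of 107, and 28 of them were above the median of all peaks. These are descriptions of peaks in 1 list, and the difference was not tested.

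C51F7.3 and C51F7.4 had the peak of highest signal among the members, 215, with 97.7 in replicate 1 and 114.6 in replicate 2. The next was ZK994.7, inside pxn-1, which encodes a peroxidasin, an extracellular matrix enzyme. Its peak had a signal of 201, with 106 in replicate 1 and 90.8 in replicate 2. Both peaks were high in both replicates, and by signal the peak of C51F7.3 ranked 3 and that of ZK994.7 ranked 7 among all 813 peaks. A wide gap to the other members followed.

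Y43F8C.22, inside Y43F8C.7, had a signal of 138, with 64.5 in replicate 1 and 76.0 in replicate 2. F19H8.6, inside mltn-9, had 135, with 79.6 in replicate 1 and 57.6 in replicate 2. F38E11.14, inside cng-3, a gene for a cyclic-nucleotide-gated channel, had 132, with 63.7 and 65.5 in replicates 1 and 2. These 3 members were within a narrow range of signal, and replicate 2 was the higher one for 2 of them. F55A11.10, inside F55A11.6, had 127, with 54.6 in replicate 1 and 76.9 in replicate 2. Y43B11AR.7, inside the ribosomal protein gene rps-4, had 121, with 54.7 in replicate 1 and 70.3 in replicate 2. C27H6.5, inside unc-41, which encodes a stonin of the synaptic vesicle cycle, also had 121, with 63.5 and 52.5 in replicates 1 and 2. For all of these the peak was in the thresholded list of each replicate.

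F39B2.14, inside tmem-107, was the strongest member whose peak was missing from a replicate's thresholded list. Its signal was 119.4, with 81.5 in replicate 1 and 37.9 in replicate 2, and the peak was thresholded in replicate 1 alone. C05D2.15, inside madf-11, a gene of the MADF family to which MADF-5 itself belongs, had 106, with 46.5 in replicate 1 and 56.4 in replicate 2. M106.6, inside mix-1, which encodes an SMC protein of condensin, also had 106, with 57.2 in replicate 1 and 47.0 in replicate 2. The replicates therefore differed in which of them was higher from member to member. D1046.6, inside cfim-2, a cleavage factor gene of 3′ end formation, had 104, with 49.8 and 55.8 in replicates 1 and 2. Y71F9AM.7, inside cogc-3, a gene of the conserved oligomeric Golgi complex, had 101, with 48.4 and 47.7 in replicates 1 and 2. T08B2.13, inside fars-1, which encodes a subunit of the phenylalanyl-tRNA synthetase, had 99.5, with 41.0 and 58.5 in replicates 1 and 2. Each of the 5 members after F39B2.14 had its peak in the thresholded list of each replicate.

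These 15 members lay on the following stretches of WBcel235. On chromosome V were C51F7.3, C51F7.4, ZK994.7 and Y43F8C.22, whose places are given with their sequences, F55A11.10 at chrV:11782992-11783082 and C27H6.5 at chrV:9970204-9970271. On chromosome IV were F38E11.14, placed above, Y43B11AR.7 at chrIV:7083872-7083930 and D1046.6 at chrIV:8927265-8927393. On the remaining autosomes were F19H8.6, placed above, M106.6 at chrII:10840317-10840391, C05D2.15 at chrIII:5602054-5602179, F39B2.14 at chrI:14759178-14759412, Y71F9AM.7 at chrI:2935785-2935920 and T08B2.13 at chrI:6212696-6212824. All lay in introns of their hosts except C51F7.4 and F39B2.14, which overlapped an exon.

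The remaining 12 bound members had signals between 49.9 and 94.3. They were C10C6.8 in catp-8, Y24D9A.9 in rpl-7A, W08G11.6 in W08G11.3, C24A1.8 in elf-1, F11A10.9 in rbm-34, C14C10.8 in ril-2, F54E7.10 in rps-12, K08E3.11 in cyk-4, F26D10.24 in hsp-1, K11C4.6 in unc-70, F48A11.7 in ubxn-3 and F53G12.12 in rpl-7. Among the hosts, hsp-1 encodes an Hsp70 chaperone and unc-70 a beta spectrin. None of these 12 was thresholded in both replicates.

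Of all 27 members, 14 had a summit of each replicate's thresholded list in reach, 6 had one of replicate 1 without one of replicate 2, 0 had the reverse, and 7 had none. At F26D10.24 the summit of replicate 1's list was a different one, 172 bp from the snoRNA start and 360 bp from the conservative summit, so that the peak itself was in each replicate's list at 14 members, in that of replicate 1 without replicate 2 at 5 and in neither at 8. The 7 with no such summit in reach were C24A1.8, F11A10.9, F54E7.10, K08E3.11, K11C4.6, F48A11.7 and F53G12.12. Every one of the 27 had a ranked peak of each replicate within 100 bp of the summit, so the peaks of these 7 were present in both replicates below the threshold of each. At the bound members the signal of the ranked peak had a median of 49.8 in replicate 1 (range 26.5 to 106) and 47.0 in replicate 2 (range 24.9 to 114.6). Over all ranked peaks the median was 13.9 in replicate 1 and 14.6 in replicate 2, and over the thresholded peaks it was 51.1 in replicate 1 and 53.5 in replicate 2. By signal within the replicate's ranked list, the peaks of the members had a median rank of 342 of 64186 in replicate 1 (range 61 to 2864) and of 350 of 70113 in replicate 2 (range 63 to 5057). Bound members were picked through a list made from both replicates. A peak in each replicate and a high signal or rank there therefore follow in part from the rule. The lowest rank in replicate 1 was at F53G12.12 and the lowest in replicate 2 at Y24D9A.9, whose peak ranked 166 in replicate 1. The second whole-series thresholded list, of 844 peaks, held a summit within 500 bp of 22 of the 27.

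**Figure D2:**
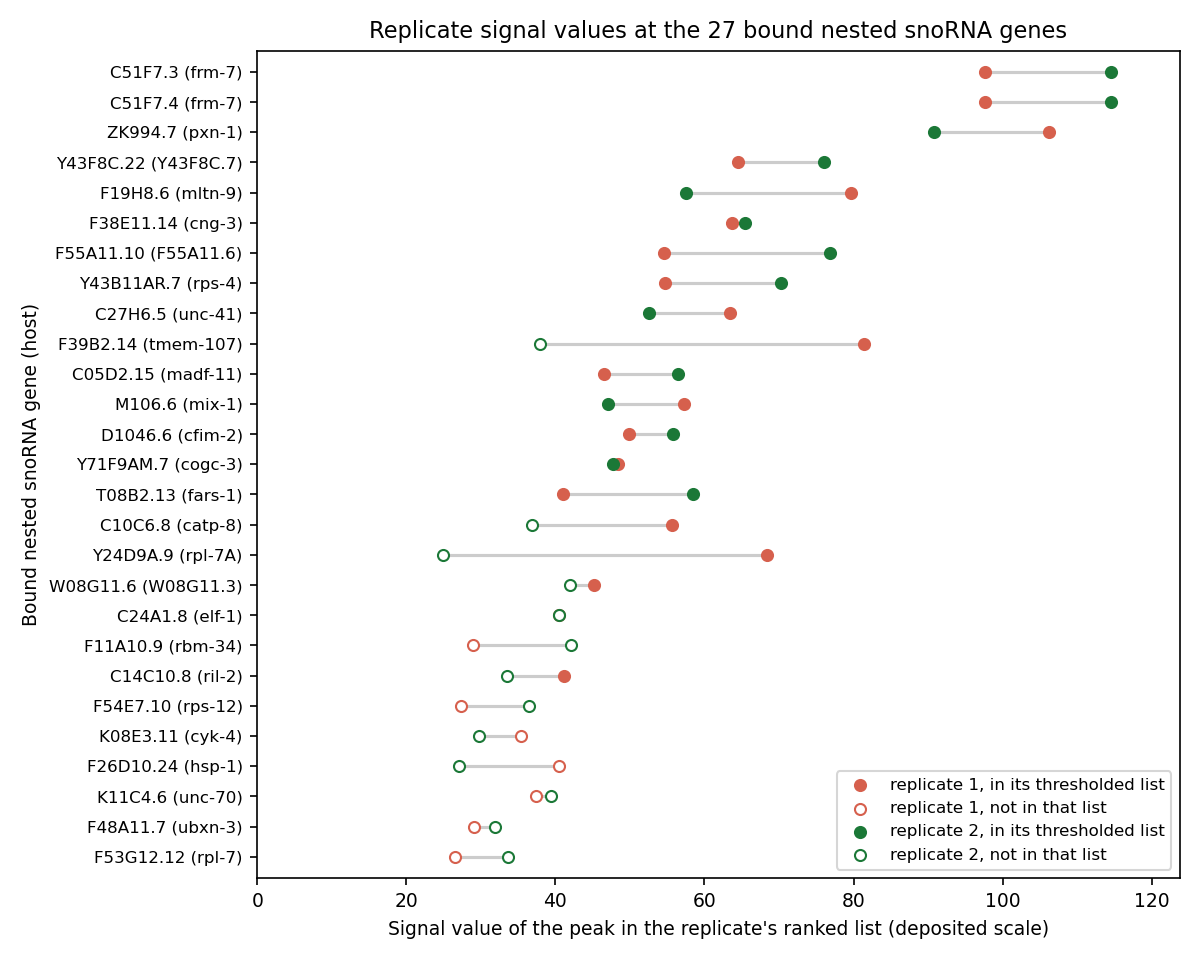
Signal value of the peak in each replicate's ranked list (x axis, deposited scale) at each bound nested snoRNA gene (y axis, by the signal of the conservative peak), with filled points where that replicate's thresholded list had a summit within 100 bp of the conservative summit. Every member had a peak in each replicate, and the 8 members with open points in both replicates lay between 26.5 and 42.0.

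The summit lay just upstream of the snoRNA at most bound members. Its median place was 35 bp upstream of the start (quartiles 64 and 8.5 bp upstream, range 362 bp upstream to 326 bp downstream), and 21 of the 27 summits were upstream. At 20 of the 27 members the summit lay between 150 bp upstream and 50 bp downstream of the start, in fact between 118 bp upstream and 16 bp downstream. Of all 27 summits, 1 lay inside its snoRNA gene, that of C51F7.4. Among the strongest members the summit lay 93 bp upstream of C51F7.3, 3 bp upstream of ZK994.7, 14 bp upstream of Y43F8C.22, 19 bp upstream of F19H8.6, 40 bp upstream of F38E11.14 and 21 bp upstream of F55A11.10. It lay 66 bp upstream of C27H6.5, 35 bp upstream of C05D2.15, 28 bp upstream of M106.6, 54 bp upstream of D1046.6, 26 bp upstream of Y71F9AM.7 and 30 bp upstream of T08B2.13. For the bound other snoRNA genes the median place was 36 bp upstream (quartiles 48.75 and 23 bp upstream), with 27 of 32 summits in the same range. At bound tRNA genes, where the A and B boxes lie inside the gene, the median summit was 20 bp downstream of the start (quartiles 5 bp upstream and 44.25 bp downstream).

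**Figure D3:**
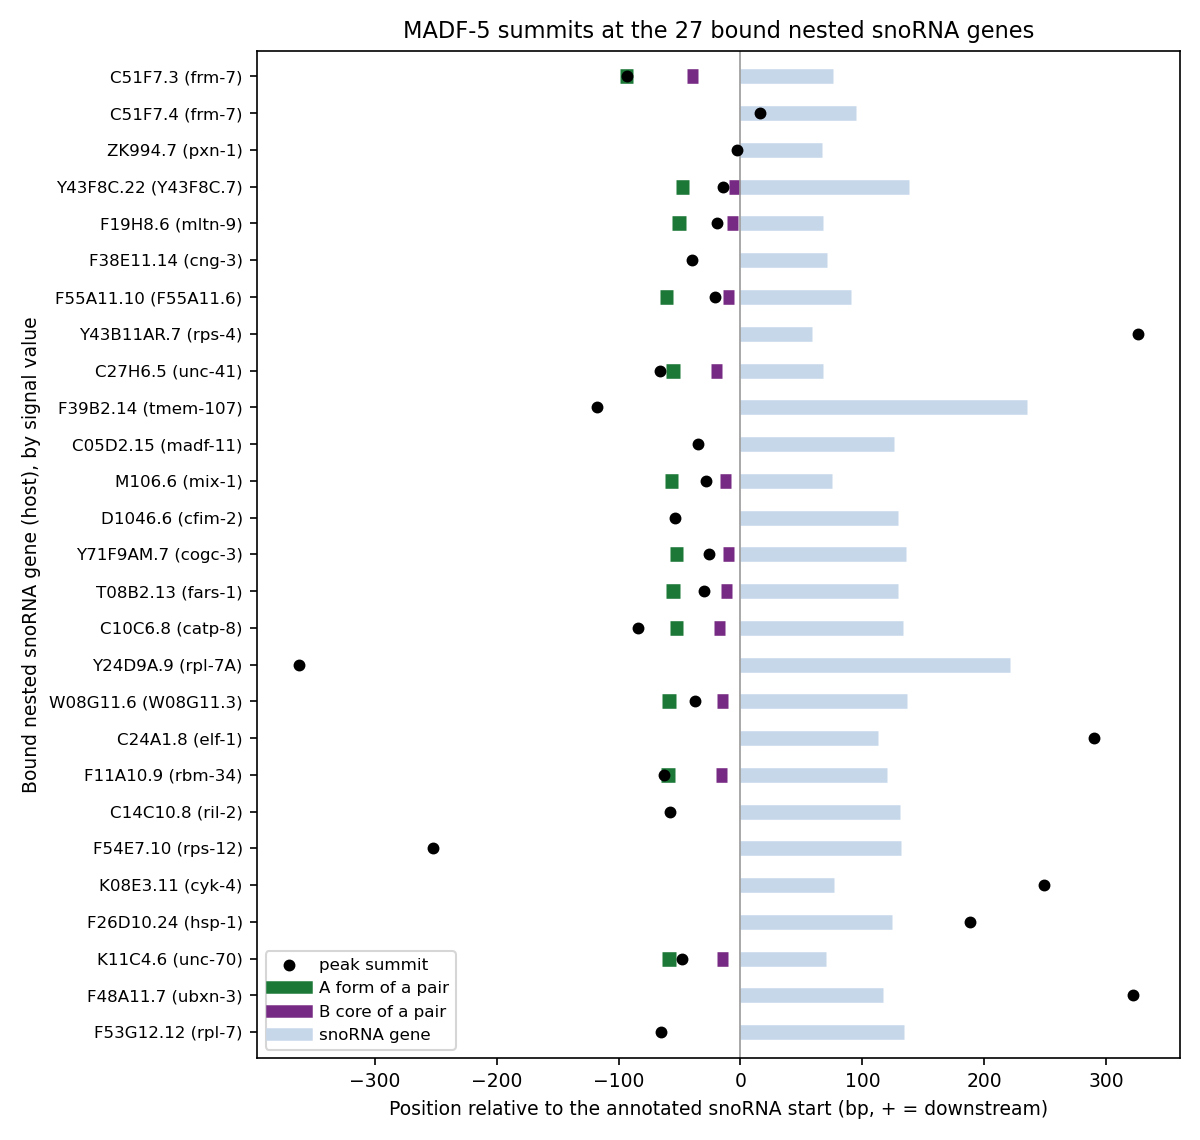
Place of the peak summit (black points) relative to the annotated start of each of the 27 bound nested snoRNA genes (x axis, bp), with the gene as a pale bar and the A form and B core of a pair as green and purple bars; rows run from the highest signal down. Most summits lay between 118 bp upstream and 16 bp downstream of the start, and 7 lay outside this range.

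The summit was closer to the snoRNA start than to any start of the host at 24 of the 27 members. It lay within 500 bp of a host transcript start at 7 of the 27 members (25.9%, 13.2 to 44.7%), and within 500 bp of the annotated gene start of the host, which leaves out the starts of its other transcripts, at 4 of 27 (14.8%, 5.92 to 32.5%). A start within 500 bp of a host start was found in 8 of 27 bound members (29.6%) and in 43 of 156 members that were not bound (27.6%, 21.2 to 35.1%), and the first of these has an interval of 15.9 to 48.5%. Among the host genes themselves, 16 of 159 had a start within 500 bp of a summit (10.1%, 6.29 to 15.7%), beside 1.44% of all protein-coding genes. Of the 149 hosts near a ranked summit 10.7% did so, beside 1.83% of protein-coding genes and 3.82% of all genes near one. The bound members lay in 8 of these 16, namely pxn-1, rpl-7, rpl-7A, rps-12, cfim-2, F55A11.6, cogc-3 and tmem-107. In all of these 8 except pxn-1, the summit of the member's own peak lay within 500 bp of a host start. The share of hosts therefore counts those peaks again. The other 8, iff-2, ret-1, rpl-15, rps-23, uaf-1, wwp-1, cdc-48.1 and mnk-1, held only members that were not bound.

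The 7 summits away from the snoRNA start had a lower signal at the median. They belonged to Y43B11AR.7 in rps-4, 326 bp downstream, F48A11.7 in ubxn-3, 322 bp downstream, C24A1.8 in elf-1, 290 bp downstream, K08E3.11 in cyk-4, 249 bp downstream, F26D10.24 in hsp-1, 188 bp downstream, F54E7.10 in rps-12, 252 bp upstream, and Y24D9A.9 in rpl-7A, 362 bp upstream. Their median signal was 65.3, against 106 for the 20 summits near the snoRNA start. Of these 7, 1 was thresholded in each replicate, against 13 of the 20. The hosts of 3 of the 7 encode ribosomal proteins, against 1 of the 20. The range that splits the 7 from the 20, 150 bp upstream to 50 bp downstream, was drawn after the data were seen. These differences were not tested. The summits at F54E7.10 and Y24D9A.9 lay 172 bp and 80 bp upstream of the host start, closer to it than to the snoRNA start. The same held for F39B2.14, whose summit was 57 bp upstream of the start of tmem-107 and 118 bp upstream of its own.

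Other annotated starts lay near some of these summits. The host, piRNA genes and pseudogenes other than tRNA pseudogenes were left out. Of the 27 members, 16 then had another gene start within 500 bp of the summit, 0 of them a tRNA gene and 6 a protein-coding gene. The nearest genes annotated as ncRNA started 69 to 244 bp from the summits of D1046.6, F55A11.10, C05D2.15, K11C4.6, T08B2.13, K08E3.11, F38E11.14, F53G12.12 and C10C6.8. Annotated tRNA pseudogenes started 11, 38 and 43 bp from the summits of D1046.6, T08B2.13 and F19H8.6, in that order. The 6 protein-coding starts were Y43B11AR.3 at 112 bp from the summit of Y43B11AR.7, ska-3 at 121 bp from that of F54E7.10, set-21 at 174 bp from that of Y24D9A.9, F55A11.11 at 178 bp from that of F55A11.10, wrt-3 at 283 bp from that of F38E11.14 and rps-26 at 400 bp from that of F39B2.14. Which of the neighbouring starts a peak belonged to was not tested.

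The members nearest the 500 bp limit differed in signal on both sides of it. The 3 members just inside it were F48A11.7 at 322 bp with a signal of 53.5, Y43B11AR.7 at 326 bp with 121 and Y24D9A.9 at 362 bp with 91.3. The 3 just outside it were C06A1.9 in cdc-48.1 at 504 bp with 114.9, F17C11.14 in eef-1G at 549 bp with 68.2 and K11H12.13 in rpl-15 at 568 bp with 184. The summits for C06A1.9 and K11H12.13 lay 161 bp and 353 bp upstream of the start of the host.

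Most members that were not bound lay near a ranked peak of lower score. Of the 156, 143 had a ranked summit within 500 bp (91.7%). Most genes did so, as 25103 of the 31527 genes of all kinds lay near a ranked summit. The score is the authors' reproducibility score, on a scale to 1000, and the conservative list begins at 830. The highest score among the summits near each of the 143 members had a median of 172 (range 45 to 784). The same value was 858 to 1000 at the bound members, as the rule requires. The highest scores without binding belonged to Y37E3.22 in Y37E3.8 with 784, F56C9.12 in gsp-2 with 741 and T06D8.11 in plpr-1 with 704. Of the 156, 4 had a summit of the second whole-series list within 500 bp, 2 had one in the list of replicate 1 and 0 in that of replicate 2.

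Position within the host was described next. Of the 27 bound members, 24 lay in an intron in every coding transcript that spanned them, 1 was in an intron or an exon depending on the transcript, and 2 overlapped an exon. This made 25 of 27 (92.6%, 76.6 to 97.9%) in an intron of some coding transcript, against 125 of 156 members that were not bound (80.1%, 73.2 to 85.6%). Seen from the other side, 24 of 143 intronic members were bound (16.8%, 11.5 to 23.8%) and 2 of 33 that overlapped an exon (6.06%, 1.68 to 19.6%). The intervals overlapped and the difference was not tested. The 2 exon-overlapping bound members were C51F7.4 and F39B2.14, and the 1 that depended on the transcript was C14C10.8.

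The introns around bound members were shorter at the median. The intron had a median length of 270 bp at the 25 bound members with one (quartiles 224 and 341 bp, range 101 to 17822 bp), against 541 bp at the 125 that were not bound (quartiles 232 and 2204 bp). The median distance from the end of the snoRNA to the 3′ splice site was 50 bp in bound members and 142 bp in the others, and that from the 5′ splice site to the start was 102 bp against 138 bp. The long exception among the bound members was C24A1.8, in an intron of elf-1 of 17822 bp. Median gene length was 120 bp in bound members and 128.5 bp in those not bound, and 11 of 27 against 37 of 156 were under 100 bp long. The quartile ranges of intron length overlapped and the difference was not tested.

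**Figure D4:**
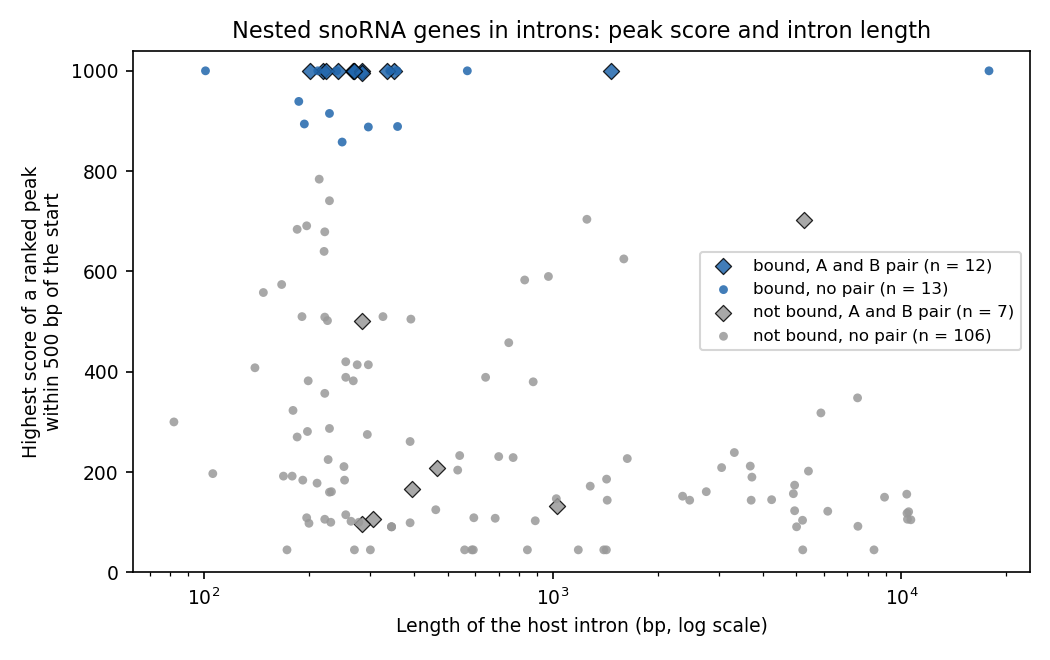
Highest score of a ranked peak within 500 bp of the start (y axis) against the length of the intron (x axis, bp, log scale) for the 138 nested snoRNA genes with an intron and a ranked summit, 25 bound and 113 not. Bound members lie above 830 by the rule, most of them in introns of 200 to 400 bp, and diamonds mark members with an A and B pair.

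Hosts of different kinds were represented. Of the 21 members in ribosomal protein genes 4 were bound (19.0%, 7.67 to 40.0%), of the 5 in translation factor genes 0, which allows a share of up to 60% at 3 counts of the total, and of the 157 in all other hosts 23 (14.6%, 9.96 to 21.0%). The intervals overlapped. The 4 bound ones in ribosomal protein genes were Y43B11AR.7, Y24D9A.9, F54E7.10 and F53G12.12. By chromosome the bound share was 9 of 36 on chromosome V, 7 of 28 on chromosome IV, 4 of 38 on chromosome III, 3 of 35 on chromosome II, 4 of 36 on chromosome I and 0 of 10 on the X chromosome, where 0 allows a share of up to 30% by the same reckoning.

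Hosts with several members were looked at one by one. Of the 23 hosts with 2 or more members, 3 had a bound one. In frm-7 both C51F7.3 and C51F7.4 were bound through their shared peak. In rpl-7A, Y24D9A.9 was bound and Y24D9A.10 was not, and in rps-12, F54E7.10 was bound and F54E7.11 was not. In the remaining 20 of these hosts no member was bound.

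Letters of the tRNA-type promoter were then counted in the 150 bp before the start of each gene, on the strand of the gene. The B box core GTTCGANNC was on the list of motifs, and the A box form TGGNNNAGNNG was chosen after the sequences of bound members were seen, so that counts in bound members are no independent evidence for it. A pair was an A form followed by a B core on the same strand, with 1 mismatch allowed in each and 25 to 50 bp between them. Neither the pair nor these limits were on the list of motifs, so the same holds for counts of pairs. As a check of the definition, tRNA genes were searched in the gene itself with 20 bp on either side, not in the 150 bp before the start. Of these, 596 of 612 held such a pair, or 97.4%, with a median gap of 33 bp. This share is therefore not the same measure as those for snoRNA genes. A pair was present before 12 of the 27 bound nested genes (44.4%, 27.6 to 62.7%) and before 7 of the 156 that were not bound (4.49%, 2.19 to 8.97%). Before the other snoRNA genes, the counts were 18 of 32 bound genes (56.2%, 39.3 to 71.8%) and 4 of 131 not bound (3.05%, 1.19 to 7.59%).

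The same pair was also counted in sequence of the same length elsewhere. It was present in 0.376% of the 150 bp stretches before the 19973 protein-coding genes and in 0.685% of 5983 pieces of 150 bp from the host introns. It was present in 1.13% of 150 bp windows at the ranked summits below the threshold and in 18.6% of those at the 813 conservative summits. Windows at summits have no strand of their own, and these shares cover 1 strand. Read on the reverse strand, the windows held a pair in 1.16% and 18.7%, in the same order. The share with a pair on either strand can therefore be higher than each of these. On the reverse strand the pair was present before 0 of 27 bound members and 3 of 156 not bound. With no mismatch allowed it remained in 4 of 27 bound members and 2 of 156 not bound.

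The parts of the pair were also counted on their own, with no mismatch. The A form was present before 13 of 27 bound members and 7 of 156 not bound, and the B core before 5 of 27 and 4 of 156. The shorter B form GGTTCGA was present before 3 of 27 bound members and 3 of 156 not bound. In pieces of the host introns the A form was present in 2.09% and the B core in 0.618%. A match of letters is a description and says nothing of what binds there.

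**Figure D5:**
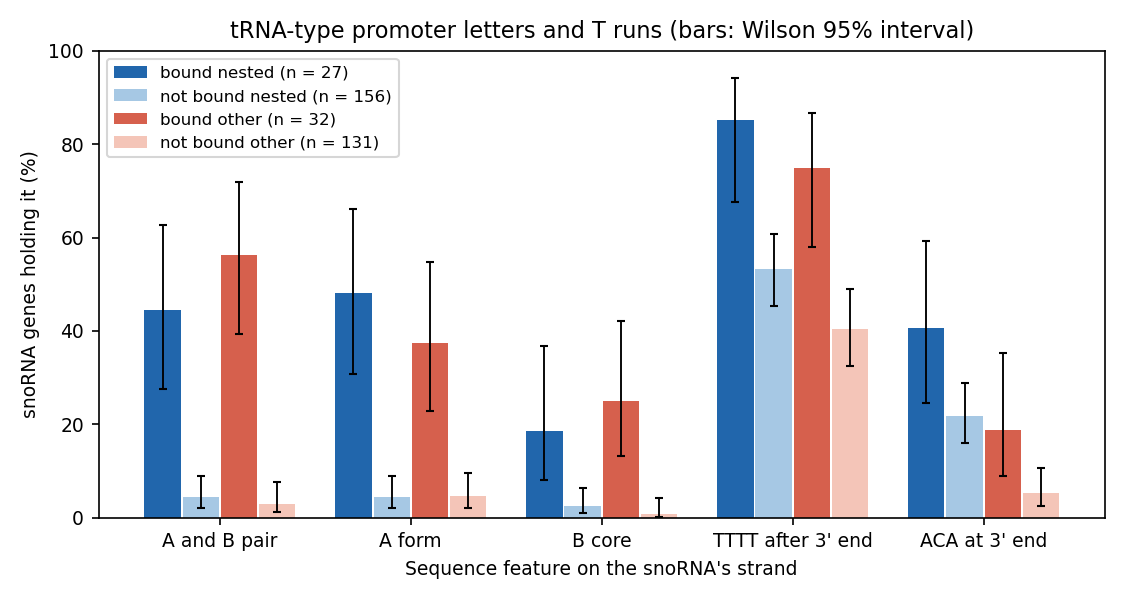
Share of snoRNA genes (y axis, %) with an A and B pair, an A form or a B core in the 150 bp before the start, a TTTT within 30 bp after the 3′ end or an ACA near the 3′ end, for bound and not bound nested genes and for bound and not bound other snoRNA genes, with Wilson 95% intervals. The pair was present in 44.4% of bound nested genes and in 4.49% of those not bound.

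At the 12 bound members with a pair, the A form began 53 to 99 bp before the start (median 61.5 bp) and the B core 9 to 44 bp before it (median 18 bp). The gap between them had a median of 34 bp, beside 33 bp in tRNA genes and 33 bp in the 7 members with a pair that were not bound. The definition admits only gaps of 25 to 50 bp, so similar gaps follow in part from it. The summit lay between the start of the A form and the end of the B core at 10 of the 12. The exceptions were C27H6.5 and C10C6.8, where it lay 5 bp and 26 bp before the A form. At C51F7.3 the pair was the most distant from the start, with the B core beginning 44 bp before it. Signal had a median of 103 in the 12 members with a pair and 91.3 in the 15 without.

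Of the 8 members whose summit lay near the snoRNA start without a pair being found, several held parts of one. F38E11.14 and C14C10.8 held an exact A form with no B core within the allowed gap. In C05D2.15 the letters of a B core ran across the annotated start and so fell partly outside the searched stretch, as the printed sequence shows. C51F7.4 is the gene that itself contains the pair of C51F7.3. ZK994.7, which had the second strongest peak, held neither exact form in the 150 bp before its start, and the same was true of F39B2.14 and F53G12.12.

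The genome annotation was also read for these upstream stretches. It describes the same sequence, so it is no independent evidence beside the letters. At 3 of the 27 bound members, a gene annotated as a tRNA pseudogene on the same strand lay directly before the snoRNA and ran into it. These were D1046.t1 before D1046.6 with 74 bp, F19H8.t1 before F19H8.6 with 70 bp and T08B2.t1 before T08B2.13 with 72 bp, and they shared 9, 8 and 4 bases with the snoRNA gene, in that order. None of the 156 members that were not bound had such a pseudogene in the 150 bp before its start. This allows a share of up to 1.92%, taking a count of 0 to allow 3, or of up to 2.40% by the Wilson interval. Among the other snoRNA genes, 0 of 32 bound ones and 1 of 131 not bound, Y59E1B.14, had one. The annotation holds 209 tRNA pseudogenes in all. No member, bound or not, had an annotated tRNA gene on its strand in that stretch. Of the bound members with a pseudogene, F19H8.6 and T08B2.13 also held a pair. D1046.6 was a member without a pair by the letters searched but with a tRNA-like sequence by annotation.

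A run of T followed most of the bound genes. TTTT lay within 30 bp after the 3′ end of 23 of 27 bound members (85.2%, 67.5 to 94.1%) and of 83 of 156 not bound (53.2%, 45.4 to 60.9%), while 44.8% of 30 bp pieces from the host introns held it. Among the other snoRNA genes the counts were 24 of 32 bound and 53 of 131 not bound. The run was present after 19 of the 20 bound members with a summit near the snoRNA start and after 4 of the 7 with a summit elsewhere. That split was drawn after the data were seen, and the difference was not tested. All 12 bound members with a pair had the run of T. The end of the snoRNA lay nearer to the 3′ splice site in bound members, at a median of 50 bp against 142 bp. Whether a run of T belonged to the end of the snoRNA gene or to the splice site was not tested.

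Letters of the snoRNA classes were found in both bound and not bound members. An ACA near the 3′ end was present in 11 of 27 bound members and 34 of 156 not bound, the C box core in 3 of 27 and 6 of 156, and the D box in 8 of 27 and 33 of 156. Since many C and D boxes differ from these exact letters, genes without them were given no class. Letters of both classes were present among bound members, as in C51F7.3 with its C and D boxes and Y43F8C.22 with its ACA.

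A pair did not always go with a peak of the conservative list. Of the 19 nested genes with a pair, 12 were bound (63.2%, 41.0 to 80.9%), against 15 of the 164 without one (9.15%, 5.62 to 14.5%). The pair rests on an A form chosen after bound members were seen, so these shares are no independent evidence for it. For the other snoRNA genes, 18 of 22 with a pair were bound (81.8%, 61.5 to 92.7%) and 14 of 141 without one. The 7 nested genes with a pair that were not bound were F25H5.9 in pyk-1, K02F3.15 in zip-2, R12E2.17 in rpn-8, T23B12.13 in mrps-2, T24H7.6 in T24H7.2, Y71D11A.7 in acsd-1 and ZK546.18 in mdt-4. Their highest ranked scores ran between 96 and 702, with Y71D11A.7 at 702 and ZK546.18 at 501. ZK546.18 was also within 500 bp of a summit in the second whole-series list and in the list of replicate 1. For the other 5 the score was between 96 and 208, and 6 of the 7 had a TTTT after the gene.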

How the data were processed

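Whole L4 larvae were profiled by ChIP-seq in 2 biological replicates, and the replicate number came from the labels. Peak lists on ce11 were deposited by the authors, per the labels, as ranked and thresholded lists for each replicate and for the whole series. The deposited score is the authors' reproducibility (IDR) score, to at most 1000, with a lowest value of 830 in the conservative list. The deposited signal is the authors' peak value, on a scale not given in the sources used here, as are the aligner, the peak caller and the read totals. Depth is therefore unknown. A summit was the peak start plus its offset. Genes came from Ensembl release 115, and sequence from the RefSeq copy of WBcel235, whose chromosome lengths hold every peak. piRNA genes were left out. Python 3.11.15 and NumPy 2.4.6 were used, with figures in Matplotlib 3.10.9. The place rule was tested on simulated data. Named were the 15 bound members of highest signal with values, all other bound members with their hosts, the 3 on each side of the window, and members sharing a host with a bound one. Genes named outside this rule, the A form and the pair built on it were chosen after values were seen. The same holds for the range of 150 bp upstream to 50 bp downstream of the snoRNA start. The members and lists were chosen with earlier results of these data known. Shares carry Wilson 95% intervals, except that limits for counts of 0 were set at 3 counts of the total. No test was made, since there is 1 group. Alternatives covered windows, lists, replicates, annotation and the place within the host.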

Additional observations from a re-analysis of the deposited data

How the results depend on the processing

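The share of nested snoRNA genes bound, 14.8% with 500 bp, was 12.02% (22 of 183) with a window of 250 bp and 21.3% (39 of 183) with 1000 bp, while the background over all genes was 3.8% and 4.55% at these windows. Leaving out a replicate, which means using the other replicate's own list, gave 7.65 to 12.02%, with 7.65% when replicate 1 was left out. In the other 15 alternatives for this share, including the 250 bp window and the second whole-series list (14.2%), the stronger 50% of the peaks by signal (10.4%), RefSeq gene models (27 of 180) and a summit between 150 bp upstream and 50 bp downstream (10.9%), it stayed within the interval of 10.3 to 20.6%. The last of these and the return of ranked peaks past the score were added after the data were seen. The median place of the summit ran between 48.5 bp and 25.5 bp upstream over its alternatives and kept its sign. The share of summits within 500 bp of a host start, 25.9% over all host transcripts, was 14.8% with the gene start alone and 33.3% with 1000 bp. No paired analysis was possible because there is 1 group. With 2 replicates and no read totals, a member without a thresholded peak cannot be called unoccupied.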
